A study of Mus musculus with 12 samples.

Results

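Glucocorticoid receptor target genes are described here in myocardium, the muscle of the heart, through 10 genes chosen by name: Fkbp5, Tsc22d3, Per1, Zbtb16, Klf9, Klf15, Pdk4, Sgk1, Errfi1 and Ddit4. They were read from the gene column of a table of transcript abundances holding 33641 gene symbols, and all 10 were among the 13158 genes that passed the filter of at least 1 TPM (transcript abundance as a share of the library, scaled by transcript length) in at least 3 libraries. Their 46 annotated transcripts in the table included 26 that passed the same filter and 19 with a mean of at least 1 TPM. The 12 hearts came from male wild-type C57BL/6 mice of about 16 weeks of age, in 4 groups of 3. Sham vehicle and sham prednisone mice had a sham operation, and MI vehicle and MI prednisone mice had surgery producing a myocardial infarction (MI). Prednisone, a synthetic glucocorticoid, was injected intraperitoneally at 1 mg/kg once a week for 6 weeks at lights-on (ZT0), beginning 2 weeks after surgery in mice of about 10 weeks of age, and vehicle was given on the same weekly schedule. Hearts were sampled 24 hours after the last injection, so every prednisone library describes that interval and not the hours just after a dose.

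The glucocorticoid receptor is a transcription factor that is kept in the cytoplasm by chaperones until it binds a glucocorticoid, after which it enters the nucleus and binds palindromic response elements near its target genes. Prednisone itself is inactive and is converted to prednisolone by the enzyme encoded by Hsd11b1. Cardiac muscle expresses the receptor, whose gene is Nr3c1, and also the related mineralocorticoid receptor, whose gene is Nr3c2. The target genes fall into negative feedback and anti-inflammatory factors (Fkbp5, Tsc22d3), transcriptional regulators (Per1, Klf9, Klf15, Zbtb16), and regulators of metabolism and growth signalling (Pdk4, Sgk1, Errfi1, Ddit4).

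After 6 weeks of weekly treatment none of the 10 genes was called higher in prednisone-treated hearts, whether sham-operated or infarcted (2.5% of all genes were called higher in infarcted hearts and 0.0532% in sham hearts). In infarcted hearts 6 of the 10 were called lower with prednisone, led by Klf9, Per1 and Fkbp5, in a comparison in which 34.9% of all genes tested were also called lower. After median-ratio rescaling only these 3 were called lower (against 13.8% of all genes). A correction for transcript length left only Klf9 called (against 7.64%). In sham hearts none of the 10 was called in either direction, against 0.114% of all genes. At the transcript level a non-coding form of Tsc22d3 rose in infarcted hearts with prednisone while the 2 main coding forms fell, those 2 falls not being called after median-ratio rescaling or a correction for transcript length.

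Several features of the libraries moved with the groups and touch every result below. Markers of cardiomyocytes (Myh6, Actn2, Tnnt2, Tnni3, Ryr2) were present in all 12 libraries, and 2 of these 5 were called higher with prednisone in MI, their sum being 8633.1 to 10947.6 TPM in MI vehicle, 13371.2 to 15028.7 TPM in MI prednisone, 13141.2 to 13624.3 TPM in sham vehicle and 13389.2 to 15668.6 TPM in sham prednisone. Under prednisone 2 of the 5 were called lower in MI than in sham, against 14.1% of all genes, so the sums do not stand for each marker. MI vehicle replicate 3 stood apart: 14307 genes reached 1 TPM there against 11690 to 12772 in the other 11 libraries, its median gene was 0.74 above the sham vehicle mean on the log2(TPM + 1) scale, its 5 lymphocyte markers summed to 220.5 TPM against 3.19 to 17.6 elsewhere, and its 5 adipocyte markers summed to 1501.4 TPM against 16.4 to 826.3 elsewhere. The 3 MI prednisone libraries were marked by transcript length: across genes, the deviation of a library from each gene's mean correlated with transcript length at a Spearman's rho of -0.40, -0.41 and -0.27 in replicates 1, 2 and 3, against -0.12 to 0.24 in the other 9 libraries, so that longer transcripts were relatively low there. Of these lymphocyte markers Cd3e was at 0 in sham prednisone replicate 2 and no other member of either list was at 0 in any library. All 5 fibroblast markers were called lower with prednisone in MI, their sum being 815.8 to 996.4 TPM in MI vehicle, 278.8 to 473.1 TPM in MI prednisone, 353.5 to 477.2 TPM in sham vehicle and 403.4 to 481.2 TPM in sham prednisone. Of the 5 macrophage markers 4 were called lower in that comparison, with sums of 224.8 to 348.9 TPM in MI vehicle, 124.1 to 239.7 TPM in MI prednisone, 120.5 to 151.1 TPM in sham vehicle and 129.8 to 171.4 TPM in sham prednisone. No marker of these 2 lists was at 0 in any library. Of the 5 smooth muscle markers 3 were called lower there, with sums of 105.1 to 182.8 TPM in MI vehicle, 82.1 to 94.0 TPM in MI prednisone and 83.6 to 90.1 TPM over the 6 sham hearts. Of the 5 atrial markers 3 were called higher with prednisone in MI, with sums of 2813.1 to 4122 TPM in MI vehicle, 4358.5 to 6191 TPM in MI prednisone, 855 to 2511.7 TPM in sham vehicle and 1999.2 to 2708.6 TPM in sham prednisone. Under vehicle 1 of these 5 was called higher in MI than in sham and the median difference was -0.77, so the sums do not stand for each atrial marker. Of all genes, 2.5% were called higher and 34.9% lower with prednisone in MI. In bulk tissue, fewer cells of a type and less RNA per cell cannot be told apart. Nuclear copies of mitochondrial DNA held 15.3 to 20.3% of the library in MI prednisone, against 9.32 to 14.6% in the other 9 libraries. Mitochondrial transcripts held 24.6 and 21.6% in MI prednisone replicates 1 and 2 and 23.1% in MI vehicle replicate 3, against 32.4 to 42.0% elsewhere. Counts with these and globin transcripts removed are given in the last section.

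**Figure D1:**
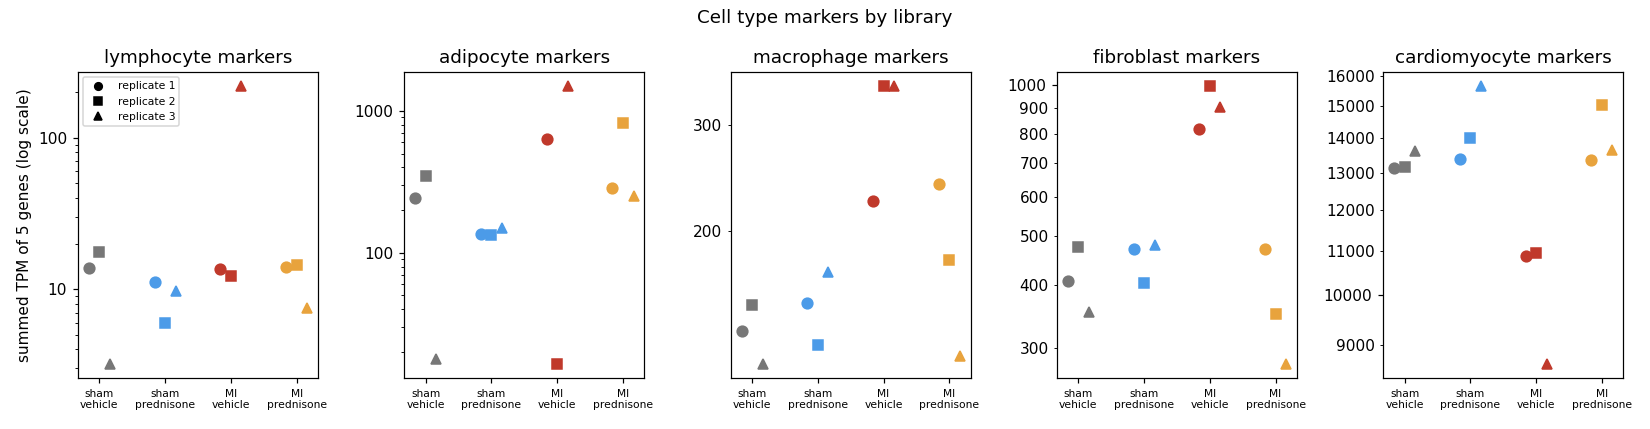
Summed TPM of 5 marker genes per cell type (log axis) in each of the 12 libraries, with point shape giving the replicate number. MI vehicle replicate 3 holds 220.5 TPM of lymphocyte markers against at most 17.6 in the other 11 libraries, and the 3 MI vehicle libraries hold 815.8 to 996.4 TPM of fibroblast markers against at most 481.2 elsewhere.

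The start sites of these genes are shown to place the receptor and clock motifs that the gene family is known for. RefSeq promoter windows (GRCm38.p6, 250 bases before to 50 bases after a start site) matched 9 of the 10 genes with 18 windows in all, Zbtb16 having no entry. Both strands were searched for the full palindromic response element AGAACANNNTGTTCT, for its single arm AGAACA, and for the E-box CACGTG that clock activators bind. The full element occurred in 3 of 32817 windows (0.00914%), and 1 of those 3 belongs to Sgk1; the single arm, which lies within the full element, occurred in 19.0% of all windows and in 4 of the 18, and the E-box occurred in 7.15% of all windows and in 4 of the 18. The D-box TTATGTAA (0.935% of all windows) was in none of the 18, and the cyclic AMP element TGACGTCA (1.79% of all windows) was in 1, at Errfi1. The 7 windows below belong to the transcripts that the results turn on, with motif matches in capitals, each written 5′ to 3′ on the strand of its gene.
Sgk1-202 (chr10:21993640-21993939, plus strand): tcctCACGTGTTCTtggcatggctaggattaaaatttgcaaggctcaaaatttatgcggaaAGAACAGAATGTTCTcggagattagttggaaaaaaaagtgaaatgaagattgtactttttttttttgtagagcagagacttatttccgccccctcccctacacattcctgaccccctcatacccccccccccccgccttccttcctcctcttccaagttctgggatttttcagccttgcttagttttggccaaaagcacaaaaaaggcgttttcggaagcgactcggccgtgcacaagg
Sgk1-201 (chr10:21994416-21994715, plus strand): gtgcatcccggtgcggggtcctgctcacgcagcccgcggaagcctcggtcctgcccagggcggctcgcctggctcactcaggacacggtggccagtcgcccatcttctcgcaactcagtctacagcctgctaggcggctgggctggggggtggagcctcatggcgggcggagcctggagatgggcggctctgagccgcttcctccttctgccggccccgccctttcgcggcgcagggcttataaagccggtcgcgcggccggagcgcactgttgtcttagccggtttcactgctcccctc
Per1-201 (chr11:69098699-69098998, plus strand): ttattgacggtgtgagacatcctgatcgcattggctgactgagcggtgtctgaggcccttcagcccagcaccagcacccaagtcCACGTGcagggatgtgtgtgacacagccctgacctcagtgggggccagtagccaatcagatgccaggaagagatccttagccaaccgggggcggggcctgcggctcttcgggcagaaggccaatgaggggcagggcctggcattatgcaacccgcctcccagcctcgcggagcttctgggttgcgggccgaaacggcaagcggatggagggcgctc
Klf15-201 (chr6:90462326-90462625, plus strand): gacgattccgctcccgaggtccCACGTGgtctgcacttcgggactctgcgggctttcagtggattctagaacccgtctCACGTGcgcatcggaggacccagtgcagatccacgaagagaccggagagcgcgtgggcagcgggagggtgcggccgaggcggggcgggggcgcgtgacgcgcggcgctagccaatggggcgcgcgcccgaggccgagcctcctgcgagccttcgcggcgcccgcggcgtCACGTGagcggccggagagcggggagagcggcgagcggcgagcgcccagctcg
Fkbp5-201 (chr17:28486100-28486399, minus strand): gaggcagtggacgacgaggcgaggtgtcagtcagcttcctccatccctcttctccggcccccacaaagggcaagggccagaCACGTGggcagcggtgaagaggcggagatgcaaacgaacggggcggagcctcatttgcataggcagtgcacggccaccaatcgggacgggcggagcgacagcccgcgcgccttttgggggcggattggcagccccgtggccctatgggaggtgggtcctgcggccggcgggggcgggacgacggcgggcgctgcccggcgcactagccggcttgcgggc
Klf9-201 (chr19:23140976-23141275, plus strand): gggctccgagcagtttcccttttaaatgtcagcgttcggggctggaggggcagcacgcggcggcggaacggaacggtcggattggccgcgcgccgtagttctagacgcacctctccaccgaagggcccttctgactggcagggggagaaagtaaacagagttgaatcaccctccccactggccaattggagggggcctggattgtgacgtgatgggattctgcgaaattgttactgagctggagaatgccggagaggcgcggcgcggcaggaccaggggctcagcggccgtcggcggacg
Tsc22d3-202 (chrX:140542619-140542918, minus strand): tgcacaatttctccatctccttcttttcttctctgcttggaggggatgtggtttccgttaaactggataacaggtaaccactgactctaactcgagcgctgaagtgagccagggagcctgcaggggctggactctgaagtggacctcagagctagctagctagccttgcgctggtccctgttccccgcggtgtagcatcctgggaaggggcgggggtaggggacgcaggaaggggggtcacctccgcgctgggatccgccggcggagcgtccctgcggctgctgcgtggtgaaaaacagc
In the Sgk1-202 window the capitals mark an E-box at -246 that runs into a single arm at -242, and the full element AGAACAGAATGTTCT at -189, counted from the start site. The capitals in the Per1-201 and Fkbp5-201 windows are E-boxes at -166 and -169, and those in the Klf15-201 window are E-boxes at -228, -172 and -3. The Sgk1-201, Klf9-201 and Tsc22d3-202 windows hold none of the 5 motifs, which says only that these letters are not within these 300 bases. A match is a description of the sequence, and no binding was measured here.

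Levels differed widely between the genes, TPM being scaled by length and so comparable between them. In sham vehicle hearts Pdk4 was the most abundant at 151 ± 55.0 TPM (mean ± SD, n = 3), followed by Tsc22d3 at 47.2 ± 6.21, Klf9 at 35.1 ± 4.40, Sgk1 at 23.7 ± 3.57, Ddit4 at 22.5 ± 4.83, Klf15 at 20.5 ± 4.40, Per1 at 14.6 ± 2.90, Errfi1 at 9.07 ± 1.07, Zbtb16 at 5.89 ± 2.44 and Fkbp5 at 4.58 ± 1.01. The values of Pdk4, Tsc22d3 and Klf9 did not overlap with those of the next gene in this order, and neither did those of Per1 and Errfi1. The ranges of Sgk1, Ddit4 and Klf15 overlapped, as did those of Klf15 and Per1, of Errfi1 and Zbtb16, and of Zbtb16 and Fkbp5.

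**Figure D2:**
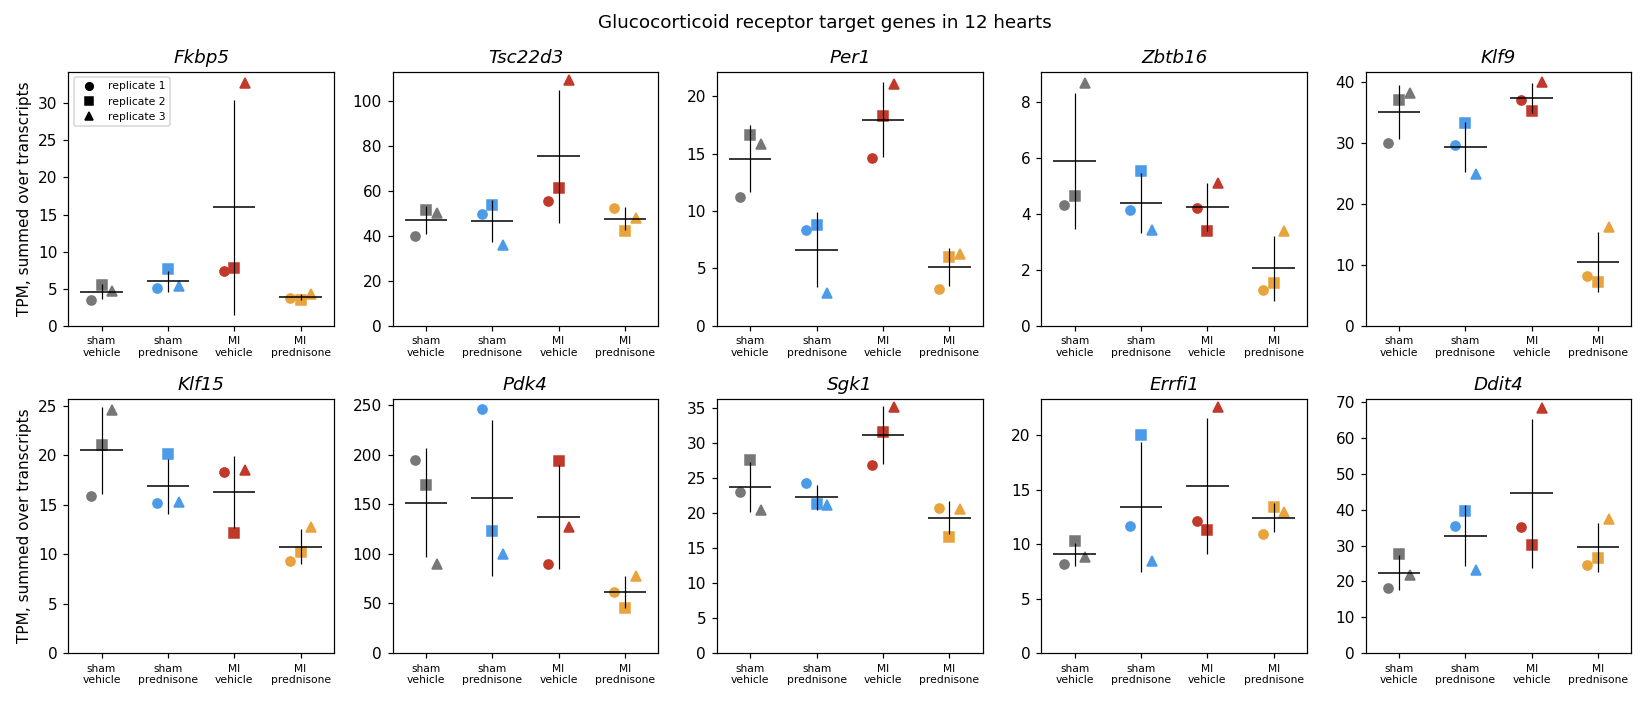
TPM summed over the transcripts of each of the 10 genes in all 12 hearts, by group, with point shape giving the replicate number, horizontal lines the group mean and vertical lines ± 1 SD (n = 3). Klf9 and Per1 sit lower in all 3 MI prednisone hearts than in every MI vehicle heart, and MI vehicle replicate 3 is the highest of the 12 libraries for 7 of the 10 genes.

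The comparison of prednisone with vehicle in infarcted hearts asked how the target genes stood after repeated dosing in the injured heart. All 10 genes had lower group means with prednisone on the log2(TPM + 1) scale, with a median difference of -0.74 against -0.41 for all genes tested. Of the 10, limma called 6 lower and 0 higher at an adjusted p under 0.05, against backgrounds of 34.9% called lower and 2.5% called higher, and the MI prednisone values lay wholly below the MI vehicle values for 7 of the 10, against 42.6% of all genes. The lower calls therefore stand on a comparison in which many genes were called lower. After median-ratio rescaling, which centres the median difference, 3 of the 10 were called lower (Klf9, Per1 and Fkbp5) against 13.8% of all genes, the split of all calls then being 1887 higher and 1819 lower in place of 329 higher and 4588 lower.

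**Figure D3:**
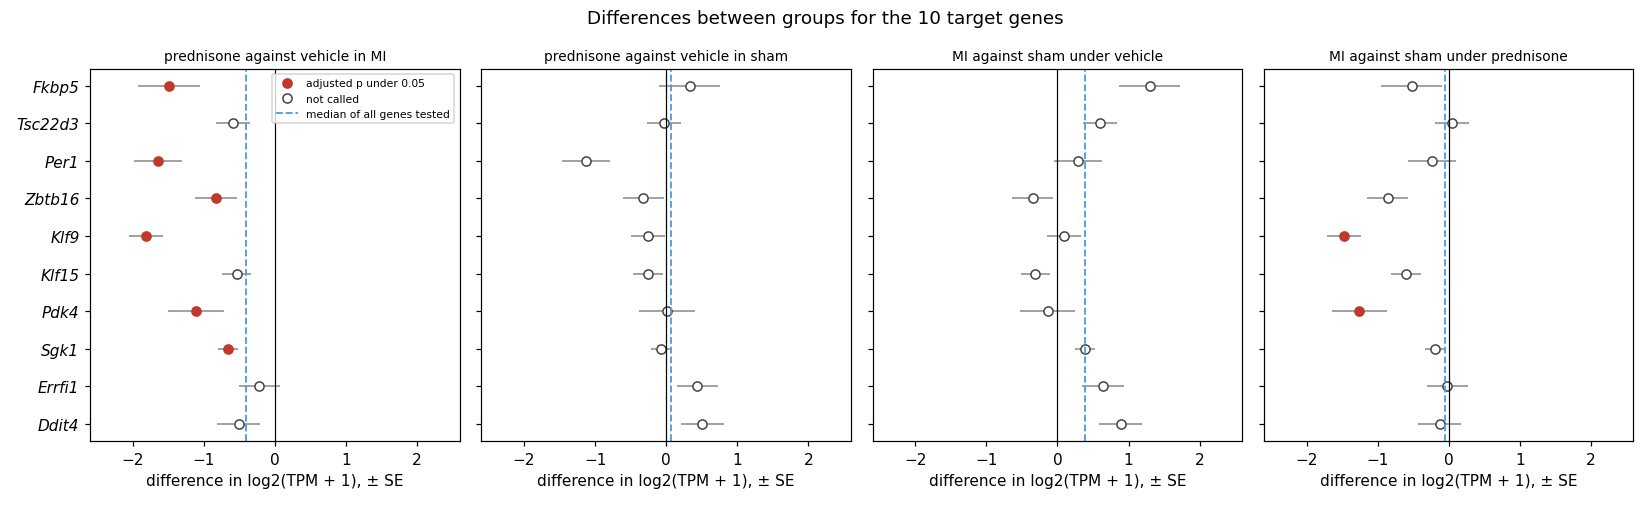
Difference in log2(TPM + 1) ± SE for each gene in 4 comparisons, with red points for an adjusted p under 0.05 by limma, open points otherwise, and a dashed line at the median of all genes tested. The 6 called genes of the MI panel lie between -1.82 and -0.66, all to the left of the median of -0.41.

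Fkbp5 (chr17:28399094-28517527, GRCm38) encodes a co-chaperone that lowers the affinity of the receptor for its hormone and is itself a target, forming a feedback loop. It read 7.40, 7.83 and 32.7 TPM in MI vehicle replicates 1, 2 and 3, and 3.81, 3.46 and 4.23 TPM in MI prednisone. The groups did not overlap, and MI vehicle replicate 3 was the highest of the 12 libraries. The difference was -1.49 (SE 0.43, limma adjusted p = 0.0198), and without MI vehicle replicate 3 it was -0.84 (adjusted p = 0.00781). The call was lost without MI prednisone replicate 1 (adjusted p = 0.0537) or replicate 2 (0.057). Sham values of 3.50, 5.51 and 4.73 TPM with vehicle and 5.09, 7.63 and 5.34 TPM with prednisone overlapped each other.

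Tsc22d3 (chrX:140539528-140600659) encodes the glucocorticoid-induced leucine zipper protein, which dampens inflammatory transcription factors. Its summed level was 55.5, 61.2 and 109 TPM in MI vehicle and 52.5, 42.3 and 47.9 TPM in MI prednisone, groups that did not overlap, with replicate 3 again the highest. The difference of -0.59 (SE 0.24) did not pass (adjusted p = 0.0688), and its size without MI vehicle replicate 3 was -0.29. In sham hearts the gene stood at 40.1, 51.4 and 50.1 TPM with vehicle and 49.8, 53.9 and 36.0 TPM with prednisone.

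Among the transcriptional regulators, Klf9 (chr19:23141226-23168134), a Krüppel-like factor that also oscillates with the clock, showed the largest difference of the 10. It read 37.0, 35.2 and 39.9 TPM in MI vehicle and 8.18, 7.11 and 16.1 TPM in MI prednisone. The 3 MI prednisone hearts were the 3 lowest of the 12, since the sham hearts read 30.0, 37.0 and 38.2 TPM with vehicle and 29.7, 33.3 and 25.0 TPM with prednisone. Klf9 fell by 1.82 on the log2 scale (SE 0.24, limma adjusted p = 0.000858), and relative to the median of all genes by 1.41. It was called under every alternative run for this comparison, including a correction that removes the trend of each library with transcript length (-1.20, adjusted p = 0.0106).

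Per1 (chr11:69095217-69109960), a repressor in the core circadian clock, read 14.6, 18.3 and 21.0 TPM in MI vehicle and 3.23, 5.96 and 6.22 TPM in MI prednisone. All 3 treated values lay below the untreated ones. Per1 fell by 1.65 (SE 0.34, limma adjusted p = 0.00461), and the call was lost under the length correction (-1.04, adjusted p = 0.053). Sham hearts read 11.3, 16.6 and 15.8 TPM with vehicle and 8.33, 8.74 and 2.84 TPM with prednisone, also without overlap, and that difference of -1.13 had an unadjusted p of 0.00691 and an adjusted p of 0.978. Per1 was the only one of the 10 genes whose sham groups did not overlap, against 2.58% of all genes in that direction.

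Klf15 (chr6:90462576-90475238), a Krüppel-like factor that governs fuel use in cardiac muscle, and Zbtb16 (chr9:48654297-48836222), a zinc-finger repressor induced by glucocorticoids in many tissues, showed smaller differences. Klf15 read 18.3, 12.1 and 18.5 TPM in MI vehicle and 9.34, 10.2 and 12.7 TPM in MI prednisone, ranges that overlapped, with a difference of -0.54 (SE 0.21, limma adjusted p = 0.0563). Zbtb16 read 4.21, 3.40 and 5.12 TPM in MI vehicle and 1.26, 1.52 and 3.40 TPM in MI prednisone. Zbtb16 fell by 0.83 (SE 0.29, adjusted p = 0.046), its replicate 3 with prednisone lying just below the lowest MI vehicle heart, both being 3.40 TPM after rounding. In sham hearts Klf15 ranged from 15.8 to 24.6 TPM with vehicle and from 15.1 to 20.1 TPM with prednisone, and Zbtb16 from 4.31 to 8.69 TPM and from 3.43 to 5.55 TPM. The Zbtb16 call was lost without MI vehicle replicate 1 or 3 and without MI prednisone replicate 1 or 2, with differences of -0.83, -0.71, -0.64 and -0.72.

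Pdk4 (chr6:5483351-5496309) encodes a kinase that shuts off pyruvate dehydrogenase and so turns the heart from glucose to fatty acid oxidation. It read 90.2, 193.7 and 127 TPM in MI vehicle and 61.1, 45.5 and 77.6 TPM in MI prednisone, with no overlap although the MI vehicle hearts varied among themselves. Pdk4 fell by 1.11 (SE 0.39, limma adjusted p = 0.0455). The call was lost without MI vehicle replicate 2 or 3 and without any of the 3 MI prednisone replicates, with differences between -1.29 and -0.83. Sham hearts overlapped between 89.6 and 195.0 TPM with vehicle and between 99.8 and 245.9 TPM with prednisone.

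Sgk1 (chr10:21882184-21999903), the serum- and glucocorticoid-regulated kinase, controls sodium transport and cell survival. Its 3 MI vehicle hearts read 26.8, 31.6 and 35.1 TPM and its 3 MI prednisone hearts 20.8, 16.6 and 20.6 TPM, without overlap. Sgk1 fell by 0.66 (SE 0.14, limma adjusted p = 0.00609), 0.25 beyond the median of all genes, and under rescaling the difference was -0.21 (adjusted p = 0.307). Sham vehicle hearts, at 20.5 to 27.5 TPM, overlapped the MI prednisone values, and sham prednisone hearts, at 21.1 to 24.3 TPM, lay above all 3 of them.

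Errfi1 (chr4:150853919-150868892), an inhibitor of the epidermal growth factor receptor, and Ddit4 (chr10:59949669-59951834), an inhibitor of mTOR signalling induced by stress and glucocorticoids, were not called. Errfi1 read 12.1, 11.3 and 22.6 TPM in MI vehicle and 10.9, 13.4 and 12.97 TPM in MI prednisone, a difference of -0.22 (SE 0.29, limma adjusted p = 0.566) that became 0.21 under rescaling, 0.28 under the length correction and 0.08 without MI vehicle replicate 3. Ddit4 read 35.1, 30.2 and 68.4 TPM in MI vehicle and 24.6, 26.7 and 37.3 TPM in MI prednisone, a difference of -0.51 (SE 0.30, adjusted p = 0.197). Both genes overlapped between the groups, and for both MI vehicle replicate 3 was the highest of the 12 hearts.

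**Figure D4:**
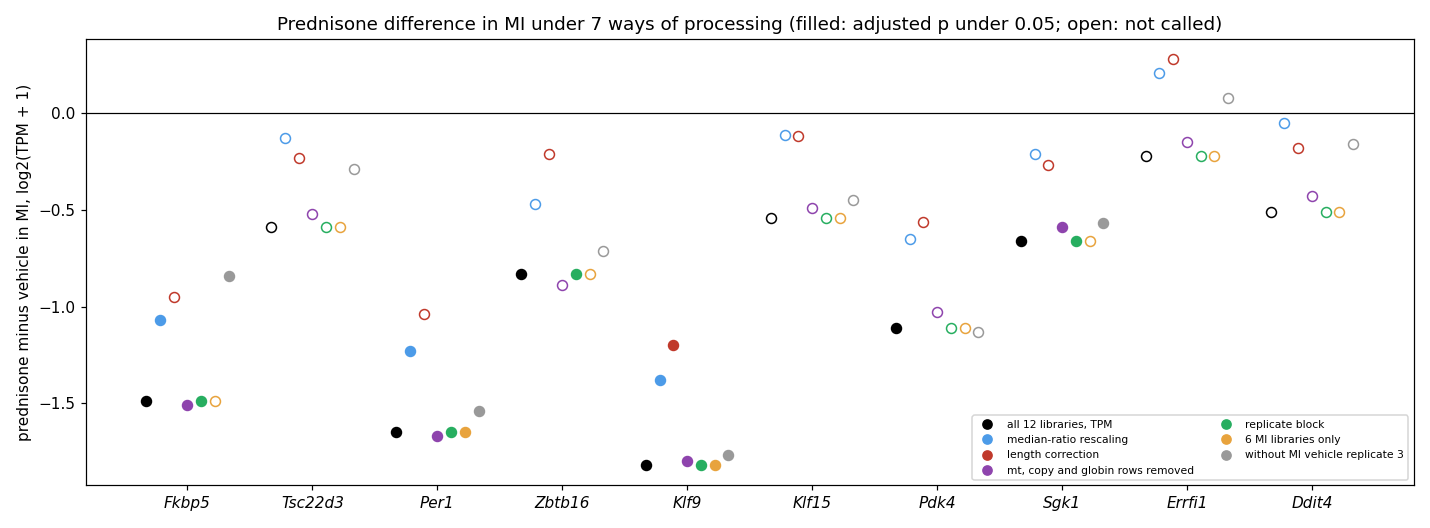
Difference between prednisone and vehicle in infarcted hearts, in log2(TPM + 1), for the 10 genes under 7 ways of processing, with filled points for an adjusted p under 0.05 by limma. Klf9 is filled under all 7, while the length correction leaves no other gene filled.

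Of the limits on these 6 calls, the length correction left 1 of the 10 genes called (Klf9), against 7.64% of all genes called lower under it, and leaving out MI vehicle replicate 3 left 4 (Klf9, Per1, Fkbp5 and Sgk1), against 28% of all genes. The part of the cardiomyocyte, fibroblast, macrophage, smooth muscle, atrial and lymphocyte markers and of transcript length in these differences was not tested beyond those values.

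Prednisone against vehicle in sham hearts asked the same of uninjured myocardium. None of the 10 genes was called by limma, 1 of the 10 (Per1) had an unadjusted p under 0.05, and 0.114% of all genes were called. The differences ran from -1.13 for Per1 to 0.51 for Ddit4, with a median of -0.06 against 0.07 for all genes. Ddit4 read 18.1, 27.6 and 21.7 TPM with vehicle and 35.4, 39.6 and 23.2 TPM with prednisone, and Errfi1 read 8.15, 10.2 and 8.81 TPM with vehicle and 11.7, 20.0 and 8.44 TPM with prednisone. In both genes 2 of the 3 treated hearts exceeded every vehicle heart and replicate 3 did not, so the groups overlapped, and the differences of 0.51 (SE 0.30) and 0.44 (SE 0.29) each had an adjusted p of 1.

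MI against sham in vehicle-treated hearts asked what infarction did to the genes without added hormone. Fkbp5, Ddit4, Errfi1 and Tsc22d3 were each higher in all 3 MI hearts than in any sham heart, 4 of 10 against 40.8% of all genes, by 1.30 (SE 0.43), 0.89 (SE 0.30), 0.64 (SE 0.29) and 0.60 (SE 0.24) on the log2 scale. None of the 10 was called by limma, with adjusted p-values of 0.0584, 0.063, 0.12 and 0.085 for those 4 and 4 of the 10 at an unadjusted p under 0.05, in a comparison that called 16% of all genes (1981 higher and 119 lower, or 426 higher and 424 lower after rescaling). The median difference was 0.34 against 0.39 for all genes. Without MI vehicle replicate 1 limma called 4 of the 10 (Fkbp5, Ddit4, Sgk1 and Tsc22d3) higher, against 41.2% of all genes. Without replicate 2 it called Fkbp5 and Ddit4 higher, against 11.6% of all genes, so that the calls depended on which of these unlike hearts remained. Leaving out MI vehicle replicate 3 in turn lowered Fkbp5 to 0.64, Ddit4 to 0.54, Errfi1 to 0.34 and Tsc22d3 to 0.31.

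MI against sham under prednisone compared the 2 treated groups. Klf9 was lower in MI by 1.47 (SE 0.24, limma adjusted p = 0.00288) and Pdk4 by 1.26 (SE 0.39, adjusted p = 0.0498), 2 of the 10 against a background of 14.1% called lower (359 higher and 1854 lower among all genes, or 1420 higher and 1924 lower after rescaling). The 2 groups did not overlap for 6 of the 10, all lower in MI, against 32.2% of all genes. Zbtb16 (-0.86, adjusted p = 0.0694) and Klf15 (-0.60, adjusted p = 0.0689) did not pass, and both did without MI prednisone replicate 3. The Pdk4 call was lost without any 1 of sham prednisone replicates 1, 2 and 3 and MI prednisone replicates 1 and 2. Because every comparison shares a group with 2 others, the differences of a gene in separate comparisons are not independent of each other.

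The interaction asked whether the prednisone difference in infarcted hearts departed from that in sham hearts. Klf9 was the only one of the 10 called, the difference being 1.57 more negative in MI than in sham on the log2 scale (SE 0.34, limma adjusted p = 0.0125), against 20.7% of all genes called in that direction (71 higher and 2726 lower, or 564 higher and 577 lower after rescaling). Fkbp5 had the largest interaction at -1.82 with a larger error (SE 0.61, adjusted p = 0.053), and it passed without MI vehicle replicate 1, 2 or 3. The Klf9 call was lost after the length correction, under which its interaction was -0.85 (adjusted p = 0.208). For Per1 the prednisone difference was -1.65 in MI and -1.13 in sham, and the interaction did not pass (adjusted p = 0.438).

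The transcripts of the genes did not move together. Of the 26 transcripts tested, limma called 2 higher and 10 lower with prednisone in MI, against 5.92% and 27.1% of all transcripts. None was called with prednisone in sham hearts, where 1 had an unadjusted p under 0.05 and 0.054% of all transcripts were called, nor with MI under vehicle, where 5 had an unadjusted p under 0.05 and 2.84% were called. The alternatives for single transcripts, and the fit of each transcript against the rest of its gene, were added after the values had been seen. The 7 lower calls named below, in Tsc22d3, Klf15, Sgk1, Fkbp5 and Per1, were each lost under rescaling, under the length correction and with only the groups compared.

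Tsc22d3-202, which the annotation calls a processed transcript without a coding sequence and whose start-site window is printed above, read 5.48, 4.94 and 7 TPM in MI vehicle and 20.9, 9.61 and 12.3 TPM in MI prednisone. All 3 treated hearts exceeded every other heart, the sham libraries lying between 4.25 and 8.13 TPM. It rose by 1.11 (SE 0.27, limma adjusted p = 0.0103) while the main coding form Tsc22d3-201 fell by 0.99 (adjusted p = 0.0305) and the long coding form Tsc22d3-203, which starts far upstream, fell by 1.01 (adjusted p = 0.00736). The Tsc22d3-201 call was lost without MI vehicle replicate 3, where the difference was -0.64, and without any 1 of the 3 MI prednisone replicates, while the Tsc22d3-202 and Tsc22d3-203 calls were kept when any 1 of these 6 hearts was left out. Its share of the gene went from 8.12 ± 1.73% to 29.4 ± 9.17% (SD, n = 3), and it was 7.90 to 16.4% over the 6 sham hearts. Tested against the other transcripts of the gene, Tsc22d3-202 rose by 2.08 on the log2 ratio scale (adjusted p = 0.0023), in a fit that called 26.5% of all transcripts in this comparison and 0.00438% with prednisone in sham. Of the 23 transcripts of the target genes in that fit, 5 were called higher and 2 lower in this comparison, and 0 with prednisone in sham. Tsc22d3-202 is 1790 bases long and Tsc22d3-201 is 1974, and 91.1% of the 31-base words of the former also occur in the latter, which leaves 157 words of its own on which the division of reads between them rests. The shorter Tsc22d3-202 starts downstream of Tsc22d3-201, at 140542668 against 140543187 on the minus strand. Longer transcripts were relatively low in the MI prednisone libraries, and the part of that relation in the shift of its share was not tested.

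In Klf15 the main coding transcript Klf15-201, whose window holds 3 E-boxes, read 15.5, 8.80 and 16.1 TPM in MI vehicle and 3.62, 3.32 and 8.90 TPM in MI prednisone, and fell by 1.27 (limma adjusted p = 0.0132). The groups overlapped, the lowest MI vehicle heart being at 8.80 TPM and the highest MI prednisone heart at 8.90 TPM, and the call was lost without MI prednisone replicate 1 or 2. Klf15-205, a shorter coding transcript of 1545 bases against 2373 that starts downstream of that window, read 1.57, 0.988 and 0.356 TPM in MI vehicle and 3.06, 3.71 and 0.977 TPM in MI prednisone (difference 0.81), with overlapping groups and no call (adjusted p = 0.101). The share of Klf15-201 was 84.6, 72.6 and 87.2% in MI vehicle and 38.8, 32.6 and 69.8% in MI prednisone, while both sham groups held 87.5 to 90.8%. Against the other Klf15 transcripts it fell by 2.00 on the log2 ratio scale (SE 0.45, adjusted p = 0.00769). MI prednisone replicate 3, with the smallest shift of the 3, was also the library with the weakest relation to transcript length (rho -0.27 against -0.40 and -0.41), and the part of that relation in the shift was not tested.

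**Figure D5:**
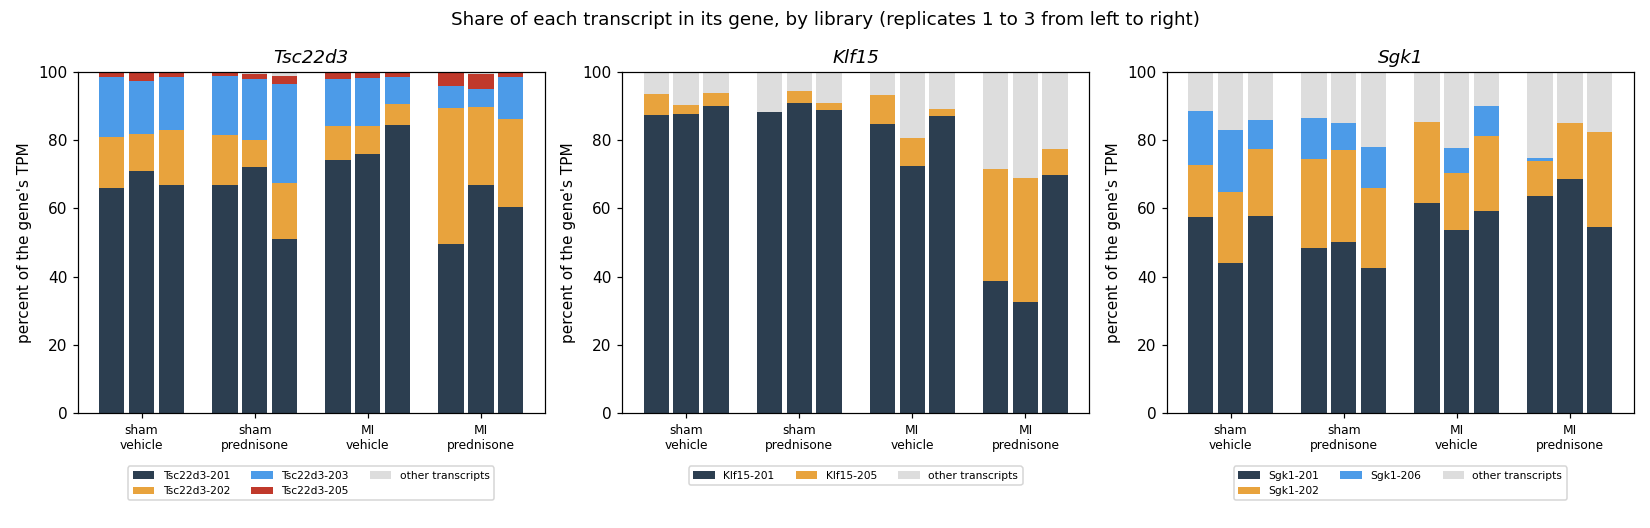
Share of the TPM of Tsc22d3, Klf15 and Sgk1 held by each named transcript in every library, with replicates 1 to 3 from left to right in each group and bars stacked to 100%. The Tsc22d3-202 share is 22.7 to 39.9% in MI prednisone hearts and at most 16.4% in all others, and Klf15-201 holds 72.6% or more outside MI prednisone.

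In Sgk1 the 2 main coding transcripts start at separate windows. Sgk1-201 fell in MI with prednisone from 16.5, 16.9 and 20.8 TPM to 13.2, 11.4 and 11.2 TPM (-0.56, SE 0.14, limma adjusted p = 0.0117). Sgk1-202, whose window carries the full response element, went from 6.35, 5.34 and 7.69 TPM to 2.14, 2.73 and 5.75 TPM (-0.78, SE 0.27, adjusted p = 0.0461), with replicate 3 overlapping the MI vehicle hearts. The Sgk1-202 call was lost when any 1 of the 6 hearts other than MI prednisone replicate 3 was left out, with differences of -1.11 to -0.56 over the 6 omissions, and the Sgk1-201 call was kept in each. Whether the differences of these 2 transcripts differed from each other was not tested. The second rise among the 26 was Sgk1-203 (1.18, adjusted p = 0.0334), at 1.84, 0.511 and 1.88 TPM in MI prednisone and at most 0.0673 TPM in MI vehicle, with 1.64 TPM in sham vehicle replicate 2. Its call was lost in 5 of the 6 omissions of 1 heart. It was named after its values were seen, has a mean below 1 TPM, and has 0 words that are not shared with other Sgk1 transcripts.

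Among the remaining genes Fkbp5-201 fell by 1.37 (limma adjusted p = 0.0352), a call lost without any 1 of the 3 MI prednisone hearts, with differences of -1.80 to -0.71 over the 6 omissions. Per1-202 fell by 0.86 (adjusted p = 0.0129), a call lost without MI prednisone replicate 1. Zbtb16-201, the main Zbtb16 transcript, was not called (-0.55, adjusted p = 0.142), although the summed gene was. Per1-201, the main Per1 transcript, had the larger difference of -1.83 with a larger error and was not called (SE 0.66, adjusted p = 0.054). Its value was listed at 0.000387 TPM in sham prednisone replicate 3, against 6.49 and 7.91 TPM in replicates 1 and 2. The summed Per1 of that replicate 3 was 2.84 TPM, so the gene itself was not near 0. Per1-206 has 0 words of its own within the gene, and 99.3% of its words occur in Per1-201. It held a mean of 29.2% of Per1 in sham prednisone and 0.13 to 13.6% in the other groups. The part of the division of reads between these transcripts in the low value and the larger error was not tested.

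The receptor genes were read from a list of 10 genes for the receptor, its hormone supply, chaperones and coregulators. With prednisone in MI limma called 5 of these 10 lower and 0 higher, against 34.9% and 2.5% of all genes, and in sham hearts it called 0 (2 at an unadjusted p under 0.05). The lower calls in MI became 3 under rescaling (against 13.8% of all genes) and 3 under the length correction (7.64%). With only the groups compared they became 2 (5.91%). The median difference of the list was -0.50, and became -0.08 under rescaling and 0.03 under the length correction. Nr3c1, the receptor itself, read 18.2, 18.8 and 29.5 TPM in MI vehicle and 8.72, 7.32 and 10.3 TPM in MI prednisone. The treated hearts were again the lowest 3 of the 12, the sham hearts ranging from 14.6 to 18.8 TPM with vehicle and from 16.9 to 17.7 TPM with prednisone. It fell by 1.22 (SE 0.18, adjusted p = 0.00141), with an interaction of -1.33 (SE 0.26, adjusted p = 0.0101) that did not pass after the length correction (-0.57, adjusted p = 0.0725), and its most abundant transcript alone differed by -0.18 (adjusted p = 0.556). Nr3c2 fell by 0.73 in MI with prednisone (adjusted p = 0.0197, a call lost without MI prednisone replicate 1 or 3), from 5.87, 4.28 and 3.50 TPM to 1.71, 3.46 and 1.94 TPM. Hsd11b1, which makes the active hormone, overlapped at 13.1, 14.2 and 28.8 TPM and 13.2, 19.4 and 14.9 TPM (-0.16, adjusted p = 0.64).

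A further list held 35 other genes known as receptor targets, of which 33 passed the filter. With prednisone in MI limma called 16 of the 33 lower (48.5%, against 34.9% of all genes) and 0 higher (against 2.5%), with a median of -0.62 against -0.41 for all genes, and in sham hearts it called 0, with 5 at an unadjusted p under 0.05. The largest falls in MI among those with a mean of at least 5 TPM were the metallothionein Mt2 (-1.53, adjusted p = 0.00138), the mitochondrial uncoupling protein Ucp3 (-1.20, adjusted p = 0.0103) and the anti-inflammatory annexin Anxa1 (-1.05, adjusted p = 0.0243), whose groups overlapped and whose call was lost without MI vehicle replicate 2 or 3 or MI prednisone replicate 1 or 3. In MI under vehicle 9 of the 33 were called higher (27.3%, against 15.1% of all genes) and 0 lower, the largest among those with a mean of at least 5 TPM being Anxa1 (1.60), the cell cycle inhibitor Cdkn1a (1.45) and Mt2 (1.30). Without sham vehicle replicate 1 or 3 only 1 of the 33 was called higher, against 1.22% and 0.889% of all genes, and the Anxa1 and Mt2 calls were lost. Rescaling gave 4 higher and 2 lower for MI under vehicle, against 3.24% and 3.22% of all genes. The length correction gave 3 higher and 2 lower, against 2.83% of all genes in each direction. With only the groups compared 0 of the 33 were called, against 0.0152% of all genes called higher. In MI under prednisone 1 was called higher, the stress gene Gadd45g (1.03), and 7 lower, against 2.73% and 14.1% of all genes. The largest falls there, with the same minimum mean, were Ucp3 (-1.02, a call lost in 4 of the 6 omissions of 1 heart), the ubiquitin ligase Fbxo32 (-0.87) and the phosphatidate phosphatase Lpin1 (-0.84). Under the length correction 3 of the 33 were called lower with prednisone in MI, against 7.64% of all genes, and 0 higher, with a median of -0.05.

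Several clock genes changed with prednisone in both sham and infarcted hearts. Per1, Klf9 and Klf15 are known to be clock-controlled as well as receptor targets. In sham hearts limma called 7 of 14 clock genes, 2 higher and 5 lower, of the 15 genes called in all (0.114% of all genes). Leaving out each sham heart in turn left 1 higher and 2 to 4 lower, of 4 to 9 genes called in all. In MI it called 1 higher and 10 lower, against 2.5% and 34.9% of all genes. Dbp, a clock output factor that peaks late in the day, read 75.2, 82.8 and 86.5 TPM in sham vehicle, 7.73, 6.61 and 5.45 TPM in sham prednisone, 70.2, 72.1 and 81.9 TPM in MI vehicle and 5.93, 5.95 and 4.84 TPM in MI prednisone. Vehicle and prednisone hearts were far apart in both surgeries, at -3.45 in sham (adjusted p = 3.16e-07) and -3.53 in MI (adjusted p = 2.47e-07). Nr1d1, a clock repressor, fell by 1.58 in sham (adjusted p = 0.00047) and by 2.25 in MI (adjusted p = 9.17e-06). Arntl, a clock activator, rose by 1.99 in sham (adjusted p = 0.0208), a call lost when any 1 sham heart was left out, and differed by 0.72 in MI (adjusted p = 0.0567). The labels give the hour of injection and the interval to sampling but no clock time for each heart, and the part of the clock in the Per1, Klf9 and Klf15 differences was not tested.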

How the data were processed

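RNA from 12 mouse hearts was sequenced from stranded mRNA libraries, per the labels' protocols. The authors deposited TPM values, shares of a library scaled by transcript length, in 1 table of 105129 transcripts. Per the submitters' processing notes, Trimmomatic, HISAT2, kallisto and the build mm10 were used, their roles and versions being not given in the sources used here. TPM keeps no depth, so no counting error or detection floor can be given, and precision rests on 3 mice per group. Whether counting used strand is not given in the sources used here. Annotated genes overlap Errfi1 on the opposite strand, Klf9 on the same strand and Fkbp5 on both strands. Whether reads are shared with those genes was not tested.

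Transcripts were summed by symbol, filtered at 1 TPM in at least 3 libraries and transformed to log2(TPM + 1), a scale that understates changes of low genes. Limma 3.58.1 (R 4.3.3, lmFit and eBayes with trend) fitted 4 group means to all 12 libraries, with Benjamini-Hochberg adjustment over all 13158 genes (27769 transcripts) per comparison and calls at an adjusted p under 0.05. An exact permutation test of 3 against 3 cannot reach that threshold, so none was used. The design also named a count test, which TPM values do not allow. Transcript usage was the log2 ratio of a transcript to the rest of its gene. Positions and lengths are from GENCODE M21 (GRCm38), with lengths for 99.7% of genes, and promoters are from RefSeq (GRCm38.p6). Alternatives were median-ratio rescaling, no filter, no trend, a pseudocount of 0.1, the replicate number as a block, the most abundant transcript, only the groups compared, removal of 36 mitochondrial, nuclear-copy and globin transcripts, a loess length correction (span 0.5), and each mouse left out. The named genes were all 10 targets, their transcripts with a mean of at least 1 TPM, the genes Nr3c1, Nr3c2, Hsd11b1, Dbp, Nr1d1 and Arntl, and, per comparison, up to 3 rises and 3 falls among called genes of the list of other targets with a mean of at least 5 TPM. The target genes, lists and tests were chosen with earlier results of these data known. The fit was checked on simulated data.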

Additional observations from a re-analysis of the deposited data

Results flagged for a closer look

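The limma test of the interaction itself asked whether the prednisone difference in infarcted hearts departed from that in sham hearts. It called 1 of the 10 target genes, against 20.7% of all genes called lower. Some transcripts and related genes were also called. Klf9 had an interaction of -1.57 on the log2 scale (adjusted p = 0.0125), the MI prednisone hearts reading 7.11 to 16.1 TPM and the other 9 hearts 25.0 to 39.9 TPM. Its single transcript Klf9-201 gave the same value, -1.57. The Klf9 call was lost under rescaling (-1.04) and the length correction (-0.85).

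Among the Tsc22d3 transcripts, Tsc22d3-202 had an interaction of 1.27 (adjusted p = 0.0412) and Tsc22d3-203 one of -1.29 (adjusted p = 0.0208). The first call was lost in 8 of the 12 omissions of 1 heart, and the second in 3 of the 12 and under rescaling and the length correction. The usage of Tsc22d3-202 within its gene had an interaction of 2.22 (adjusted p = 0.0175). Of the Sgk1 transcripts, both named after their values were seen, Sgk1-203 had 1.68 (adjusted p = 0.0487, lost in 10 of the 12 omissions) with a usage interaction of 2.39, and Sgk1-212 had -1.78 (adjusted p = 0.0128), being listed at 0 in all 3 MI prednisone hearts. Neither of these has a sequence word of its own within the gene.

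For the interaction limma called lower 6 of the 33 other targets, 4 of the 10 receptor genes and 5 of the 14 clock genes. Of all genes 20.7% were called lower. Of those called, Nr3c1 had an interaction of -1.33 (adjusted p = 0.0101), Cdkn1a -1.32 (0.0218), Arntl -1.27 (0.0398), Glul -0.98 (0.0117), Fbxo32 -0.91 (0.0247) and Nr1d1 -0.67 (0.032). The calls of these 6 named genes were lost under the length correction, with values of -0.57, -0.92, -0.71, -0.44, -0.09 and -0.12 in that order, and under rescaling those of Nr3c1 (-0.82) and Arntl (-0.83) were kept. Over the 12 omissions of 1 heart the call was lost in 8 for Arntl, 7 for Nr1d1, 5 for Cdkn1a, 5 for Fbxo32 and 0 for Nr3c1 and Glul. Cdkn1a, a cell cycle inhibitor, read 6.74 to 9.21 TPM in sham vehicle, 16.6 to 25.0 TPM in sham prednisone, 16.4 to 30.5 TPM in MI vehicle and 20.4 to 27.5 TPM in MI prednisone, so that sham vehicle was the group that stood apart. Glul, glutamine synthetase, read 159.6 to 245 TPM in MI vehicle and 88.2 to 136.1 TPM in the other 3 groups. Fbxo32, a muscle ubiquitin ligase, read 8.23 to 14.2 TPM in MI prednisone and 18.1 to 22.5 TPM in the other 3 groups.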

How the results depend on the processing

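The number of the 10 target genes called with prednisone in MI was 6, all lower, against 34.9% of all genes called lower. It became 3 under median-ratio rescaling (against 13.8%), 2 with only the groups compared (5.91%), 1 under the length correction (7.64%, or 5.45% with the replicate block), 4 with no filter (16.7%) or with mitochondrial, nuclear-copy and globin transcripts removed (34.5%), and 5 without the trend (35.2%). For MI against sham under prednisone the number was 2 (against 14.1% called lower), and became 1 under rescaling (14.6%), no filter (6.34%), no trend (13.6%), the length correction (7.86%) and that correction with the block (4.85%), 3 with the most abundant transcript (15.1%) or only the groups compared (19.8%), and 4 with those transcripts removed (20.2%). For the interaction it was 1 (20.7%), and became 0 under rescaling (4.39%) and under the length correction (1.18%, or 0.412% with the block), and 2 with a pseudocount of 0.1 (22%) or with those transcripts removed (17.1%). Leaving out each mouse in turn gave 3 to 6 genes for prednisone in MI, where 23.1 to 45.6% of all genes were called lower (3 without MI prednisone replicate 1 or 2), 1 to 4 for MI under prednisone, against 7.04 to 14.7% (4 without MI prednisone replicate 3, 1 without any of the other 5), 1 to 3 for the interaction, against 8.3 to 33.7% (3 without MI vehicle replicate 1), 0 to 4 for MI under vehicle, against 0.889 to 41.2% called higher (4 without MI vehicle replicate 1) and 0 in every case for prednisone in sham, which was 0 under every alternative run.

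Leaving out each mouse gave differences of -0.39 to 0.08 for Errfi1 and -0.35 to 0.18 for Hsd11b1 with prednisone in MI. Differences changed sign for Sgk1 in MI under vehicle (-0.05 under rescaling and -0.04 under the length correction with or without the block) and, with prednisone in MI, for Errfi1 (0.21 under rescaling, 0.28 under both length corrections, 0.08 without MI vehicle replicate 3) and Hsd11b1 (0.28, 0.10 and 0.18 in that order). None of these was called. Over 76 single results and 1231 alternative values, 921 kept direction and side of the threshold, 270 lost a call, 29 gained one and 11 changed sign, and the cause was not tested. The list of single results was drawn up after the alternatives' values had been seen.

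Same-numbered hearts showed no shared deviation, with a mean correlation of -0.37 to 0.00 over the 4 pairs of groups. With 3 mice per group these correlations cannot settle whether the numbers mark pairs or batches. With the number as a block 5 of the 10 genes were called with prednisone in MI, against 31.6% of all genes called lower. In MI under prednisone 1 was called, against 12.7% called lower. With prednisone in MI the list of other targets gave 16 lower calls among 33 genes, against 34.9% of all genes. Rescaling gave 5 lower and 3 higher, against 13.8% and 14.3% of all genes. The lower calls were 4 with only the groups compared (5.91% of all genes) and 3 and 2 under the length corrections (7.64% and 5.45%). With no filter 11 of 35 were called lower (16.7%).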
